A study of Mus musculus with 24 samples.

Results

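The 5 genes described here encode the subunits of the nicotinic acetylcholine receptor of mouse skeletal muscle: Chrna1 (alpha 1), Chrnb1 (beta 1), Chrnd (delta), Chrng (gamma) and Chrne (epsilon). They were chosen by name, as the complete set of muscle subunit genes, with earlier results of these data known. In all, 15830 genes had reads in either cell line, 4 of the 5 subunit genes among them, and Chrne had 0 reads in both. Reads of each gene were summed over its transcripts. In C2C12 cells 4 of the 5 genes had reads, and in NSC34 cells 1 had.

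The muscle receptor is a ring of subunits that opens a cation channel when acetylcholine released by a motor nerve binds to it. Fetal and denervated muscle builds the ring with the gamma subunit, and innervated adult muscle replaces gamma with epsilon, while alpha, beta and delta are used in both. Differentiating myoblasts switch the alpha, beta, gamma and delta genes on, and nerve-derived signals later concentrate receptors, and the transcription of their genes, at the synapse.

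The libraries came from co-cultured C2C12, control C2C12, co-cultured NSC34 and control NSC34 cells, with 6 libraries in each of the 4 groups. C2C12 is a line of mouse muscle precursors able to fuse into myotubes, and NSC34 is a mouse line with motor neuron features. Both are labelled wild type, both were kept together for 3 days in the co-culture groups, and the control groups were grown with no co-culture. Nanopore MinION sequencing was run on total RNA, and the deposited values are read counts per transcript. How cells of the lines were parted after co-culture is not in the labels, nor whether replicates came from separate cultures, so p-values measure only the spread between these libraries, which may be technical.

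C2C12 libraries held 143502 to 547071 reads in co-culture and 121154 to 658075 in controls. NSC34 libraries held 2807 to 30314 reads in co-culture and 88 to 4624 in controls. With 3 reads of the pooled total taken as the limit for a gene with 0 reads, that limit was 0.906 CPM in C2C12 and 42.3 CPM in NSC34 (CPM is a read count scaled to a fixed library total, here that of all reads). In C2C12 all 11 muscle markers and all 5 myoblast markers had reads, and the 6 motor neuron and cholinergic markers had 0. In NSC34 the motor neuron markers Chat and Isl1 had 1 and 3 reads, and Slc18a3, Slc5a7, Mnx1 and Lhx3 had 0. Of 11 neuron markers, 6 had reads in co-cultured NSC34 and 7 in control NSC34, and the list took 0.0982% of pooled co-culture reads and 0.114% of pooled control reads. In C2C12 it took 0.0196% of co-culture reads and 0.0220% of control reads. Tubb3 had 21 reads in co-cultured and 5 in control NSC34, and Prph had 19 in co-cultured and 6 in control NSC34. The neuron marker Stmn2 went the other way, with 0 reads in both NSC34 groups, beside 193 in co-cultured and 176 in control C2C12. Those are 106 and 118 pooled CPM, above the NSC34 limit of 42.3 CPM. Nefm and Map2 also had 0 NSC34 reads, beside 9 and 2 in co-cultured C2C12 and 4 and 2 in control C2C12. At 4.97 and 1.10 CPM in co-cultured C2C12 and 2.67 and 1.34 in control C2C12, both lay under that limit, so their zeros show no direction.

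The 5 subunit genes are related by descent, which matters for assigning reads. Their coding sequences were 50.4% to 60.2% identical between pairs of main transcripts, and no pair shared a run of more than 24 identical bases. Exon 3, which is 45 bases long in all 5 genes, shows how much they differ, with capitals marking the 13 positions that are the same in all of them (GRCm38, 5′ to 3′ on the gene's strand).
Chrna1 exon 3, chr2:73574321-73574365, minus strand: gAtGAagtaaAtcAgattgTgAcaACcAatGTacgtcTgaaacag
Chrnb1 exon 3, chr11:69794969-69795013, minus strand: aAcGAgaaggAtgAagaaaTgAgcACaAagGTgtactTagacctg
Chrnd exon 3, chr1:87191520-87191564, plus strand: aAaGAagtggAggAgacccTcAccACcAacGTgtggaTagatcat
Chrng exon 3, chr1:87206468-87206512, plus strand: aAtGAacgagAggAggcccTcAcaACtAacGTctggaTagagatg
Chrne exon 3, chr11:70618625-70618669, minus strand: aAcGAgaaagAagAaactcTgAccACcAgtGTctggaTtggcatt
Exon 4 also had the same length, 110 bases, in all 5 genes. Chrnd and Chrng are neighbours on the plus strand of chromosome 1, with 5740 bases between the end of Chrnd and the start of Chrng-201. How reads were assigned to transcripts is not given in the sources used here.

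Chrna1, which carries the main acetylcholine-binding faces of the receptor, had 773 to 923 CPM in the 6 co-cultured libraries (median 897), against 739 to 881 CPM in the 6 controls (median 798). These CPM are relative to the reads of tested genes, scaled by trimmed mean of M values (TMM). The ranges of the groups overlapped over most of their width. The means were 873 ± 57.6 CPM in co-culture and 808 ± 47.9 CPM in controls (SD, n = 6 each), with a fitted difference of 0.11 on the log2 scale (SE 0.0797, 95% interval -0.06 to 0.27, edgeR quasi-likelihood adjusted p = 0.608).

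Chrng, the fetal gamma subunit, had 148 to 207 CPM in co-cultured libraries (median 175), against 83.3 to 206 CPM in controls (median 144). The highest control library lay within the co-culture range, and 3 of the 6 controls lay below all co-cultured libraries. Its log2 fold change was 0.29 (SE 0.182, 95% interval -0.09 to 0.67, edgeR adjusted p = 0.506), with means of 175 ± 23.1 CPM in co-culture and 143 ± 43.9 CPM in controls (SD, n = 6 each).

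Chrnd, the delta subunit, had 88.7 to 166 CPM in co-cultured libraries (median 90.0), against 49.997 to 111 CPM in controls (median 70.7). Of the co-cultured libraries, 4 lay between 88.7 and 90.6 CPM, and 4 of the 6 controls lay below all of them. The log2 fold change was 0.40 (SE 0.219, 95% interval -0.06 to 0.86, edgeR adjusted p = 0.414), and 0.29 without co-culture replicate 3, the library at 166 CPM.

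Chrnb1, the beta subunit, had 52.1 to 103 CPM in co-cultured libraries (median 72.0), against 37.0 to 88.8 CPM in controls (median 61.7). The groups overlapped in most libraries. With means of 72.9 ± 18.1 CPM in co-culture and 61.3 ± 17.9 CPM in controls (SD, n = 6 each), its log2 fold change was 0.24 (SE 0.221, 95% interval -0.23 to 0.70, edgeR adjusted p = 0.722).

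None of the 4 tested subunits passed an adjusted p of 0.05, against 2.18% of all 2570 tested genes (0.973% higher in co-culture), and in none were the groups apart, against 1.52% of tested genes. At an unadjusted p of 0.05, 379 genes passed and 0 subunits did, and DESeq2 passed 0 subunits beside 47 of the 2570 genes. All 4 fold changes were above 0, with a median of 0.26 on the log2 scale, beside a median of 0.0029 over all tested genes, 50.5% of which lay above 0. With no filter on low counts, the log2 fold changes were 0.48 for Chrnd and 0.38 for Chrng, with unadjusted edgeR p of 0.0353 and 0.0398, and adjusted p of 0.542 and 0.578. The rise was not particular to these subunits. Chrnb1 and Chrna1 were then at 0.32 and 0.20. Myog and Nes, described below, were at 0.51 and -0.73, against 0.43 and -0.82 with the filter. In that fit 109 of 15432 genes passed an adjusted p of 0.05. Over 2561 genes, fold changes were lower for genes with longer transcripts (Spearman's rho -0.28 across genes, which are not independent replicates), and with that trend removed the log2 fold change of Chrna1 was 0.21 (adjusted p = 0.236 by edgeR). Muscle marker genes took 2.31 ± 0.148% of the reads of co-cultured C2C12 and 2.05 ± 0.130% of those of controls (SD, n = 6 each). The markers did not move together. Ttn, Myh3 and Actc1 were lower in co-culture (736, 356 and 857 pooled CPM of all reads, against 1266, 500 and 903 in controls), and the others were higher. What part the markers had in the subunit values was not tested. In these bulk libraries, fewer cells of a type and less RNA per cell cannot be told apart.

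**Figure D1:**
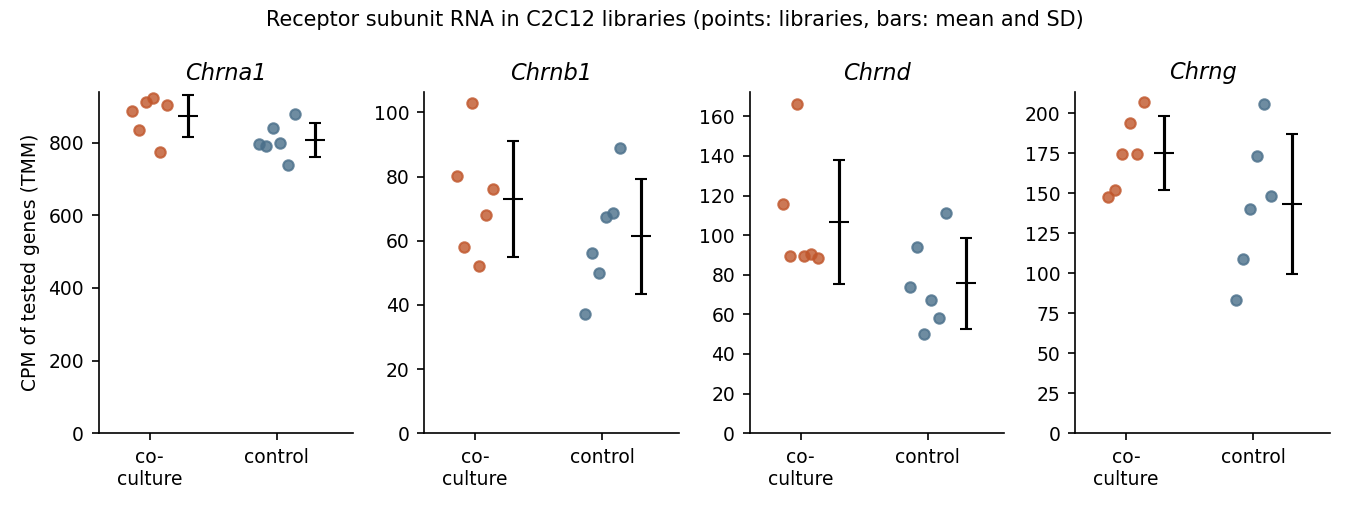
CPM of tested genes, scaled by TMM, of the 4 subunits with reads in C2C12, with 1 point per library and co-culture at the left of control in each panel; bars are the mean and SD (n = 6). The groups overlap in every panel, and Chrnd in co-culture replicate 3, at 166 CPM, stands above all other Chrnd values.

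**Figure D2:**
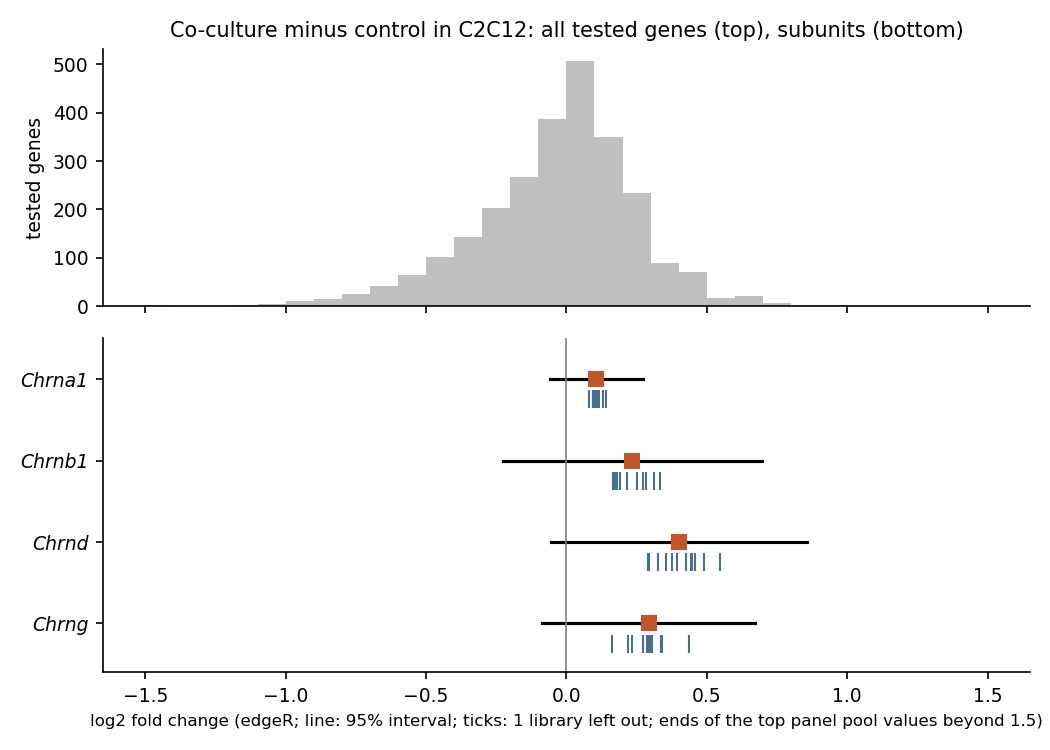
Log2 fold changes of co-culture over control in C2C12 for all 2570 tested genes (top, count of genes per bin) and for the 4 subunits (bottom, squares with 95% intervals; ticks are fits with 1 library left out). The 4 subunit values lie between 0.11 and 0.40, and each interval includes 0.

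Chrne, the adult epsilon subunit, had 0 of 3309635 reads in C2C12, in co-culture as in controls. Against the limit of 3 reads over the pooled C2C12 libraries, Chrng was at least 88.3-fold higher than Chrne per kilobase, with no error put on the Chrng level. Not divided by length, Chrng had 136 CPM of all reads beside the limit of 0.906 CPM for Chrne. The 250 bases before the RefSeq start of Chrng and Chrne are shown because the gamma and epsilon subunits fill the same place in the receptor, and 1 of these genes had reads and the other 0 (RefSeq, GRCm38.p6, 5′ to 3′ on the gene's strand). Capitals mark E-boxes (CANNTG, bound by myogenic factors) and the N-box (CCGGAA, bound by GABP factors), each searched on both strands with no match of 1 motif overlapping a match of the other.
Chrng promoter, chr1:87205561-87205810, plus strand: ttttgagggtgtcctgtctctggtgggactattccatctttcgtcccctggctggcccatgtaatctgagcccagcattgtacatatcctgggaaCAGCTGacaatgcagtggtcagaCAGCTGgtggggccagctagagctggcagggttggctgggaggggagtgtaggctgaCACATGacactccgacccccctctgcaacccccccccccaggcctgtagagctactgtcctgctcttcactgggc
Chrne promoter, chr11:70619195-70619444, minus strand: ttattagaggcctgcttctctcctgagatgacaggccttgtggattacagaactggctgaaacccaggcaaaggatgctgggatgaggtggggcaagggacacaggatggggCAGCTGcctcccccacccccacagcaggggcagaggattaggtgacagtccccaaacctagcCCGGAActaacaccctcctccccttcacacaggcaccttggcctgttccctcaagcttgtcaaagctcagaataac
The Chrng window held 3 E-boxes, 2 of them CAGCTG, and 0 N-boxes, and the Chrne window held 1 E-box and 1 N-box. The windows of Chrna1 and Chrnb1 held 3 E-boxes each. Over 32851 RefSeq promoters of this length, 66.2% held an E-box, 31.8% held 2 or more, 1.26% held 2 or more CAGCTG, and 12.03% held CCGGAA. These matches are letters in a window and were not linked to binding. Chrnd has no entry in that table.

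Levels were compared between subunits per kilobase of transcript, each read divided by the length of the transcript it was assigned to. Whether that division suits Nanopore reads was not tested, and the order of the subunits depended on it. Undivided, the 12 C2C12 libraries held 2448 reads of Chrna1, 450 of Chrng, 269 of Chrnd and 192 of Chrnb1, with Chrnd below Chrng. Over all transcripts, Chrna1 had 176 ± 12 CPM of all reads per kilobase in co-culture and 162 ± 10.2 in controls (SD, n = 6 each). Chrnd had 111 ± 24.8 in co-culture and 81.7 ± 28.9 in controls. Chrng had 55.5 ± 7.36 in co-culture and 45.9 ± 13.5 in controls, and Chrnb1 had 30.7 ± 6.82 in co-culture and 25.1 ± 7.29 in controls. Chrna1 lay above each of the others in 12 of 12 C2C12 libraries, Chrng lay above Chrnb1 in 12 of 12, and Chrnd lay above Chrng in 11 of 12. The place of Chrnd depended on a short transcript described next: over protein-coding transcripts, Chrnd had 14.4 ± 7.13 CPM per kilobase in co-culture and 9.59 ± 3.45 in controls, below Chrng and Chrnb1 in 12 of 12 libraries.

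**Figure D3:**
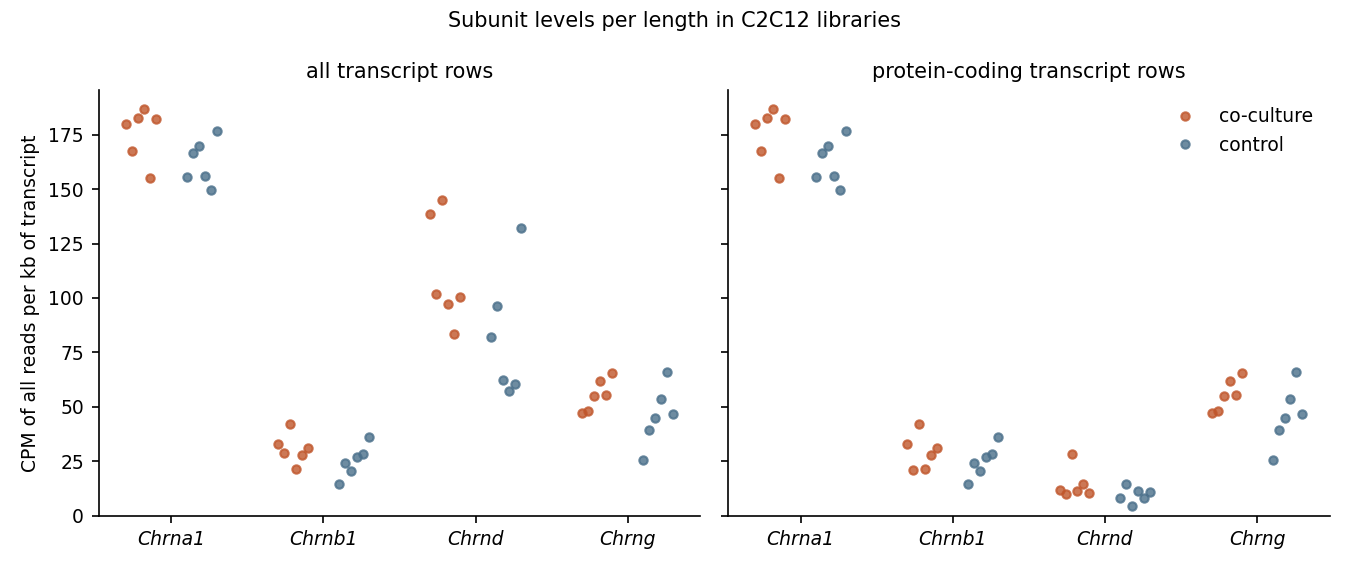
CPM of all reads per kilobase of transcript in C2C12 libraries, co-culture at the left of control for each subunit, with all transcripts (left) or protein-coding transcripts only (right); each point is a library. Chrnd lies above Chrng in 11 of 12 libraries at the left and in 0 of 12 at the right.

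The transcripts behind the counts were few. Chrna1 reads were all on Chrna1-201. Chrng reads were on Chrng-201, with 2 control reads on Chrng-203. Chrnb1 reads were on Chrnb1-201, with 3 co-culture reads on the intron-retaining Chrnb1-204. Of 17 annotated subunit transcripts, 8 had reads in C2C12. Transcript by transcript, 0 of the 4 tested subunit transcripts passed, against 0.387% of 2586 tested transcripts.

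Chrnd was the exception, since most of its reads were assigned to Chrnd-203, a 538-base transcript that ends in a retained intron. It holds the first 3 exons of the gene and 202 bases of the third intron. Capitals mark the 45 bases after exon 3, which are intron in Chrnd-203 and exon 4 in the coding transcript Chrnd-201 (GRCm38, plus strand, 5′ to 3′).
Chrnd-203, chr1:87191520-87191609: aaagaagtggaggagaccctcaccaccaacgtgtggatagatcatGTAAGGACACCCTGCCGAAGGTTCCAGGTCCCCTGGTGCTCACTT
Chrnd-201, chr1:87191520-87191564 and chr1:87192214-87192258: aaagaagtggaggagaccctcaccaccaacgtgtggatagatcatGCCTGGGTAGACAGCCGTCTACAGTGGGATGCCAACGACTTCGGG
Chrnd-203 took 93 of 161 Chrnd reads in co-culture (57.8%, exact 95% interval 49.7 to 65.5%), against 60 of 108 in controls (55.6%, 45.7 to 65.1%). Chrnd-201 had 56 reads in co-culture and 40 in controls, and Chrnd-202, the other coding form, had 12 in co-culture and 8 in controls. The share per library ran from 42.9% to 66.7% in co-culture (median 60.1%), and from 42.9% to 70.0% in controls (median 58.5%). The means of 56.5 ± 9.62% in co-culture and 57.9 ± 10.3% in controls (SD, n = 6 each) lay closer to each other than the spread between libraries (exact two-sided permutation test, p = 0.790). Of 2404 genes with at least 50 reads and reads on both kinds of transcript, 7.61% had more than 50% of their reads on retained-intron transcripts, and the median share was 3.65%. Chrnd-203 shares a run of 307 bases with Chrnd-201, so a read that covers the first exons only can be assigned to either, and the deposited table does not show which reads covered the intron.

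**Figure D4:**
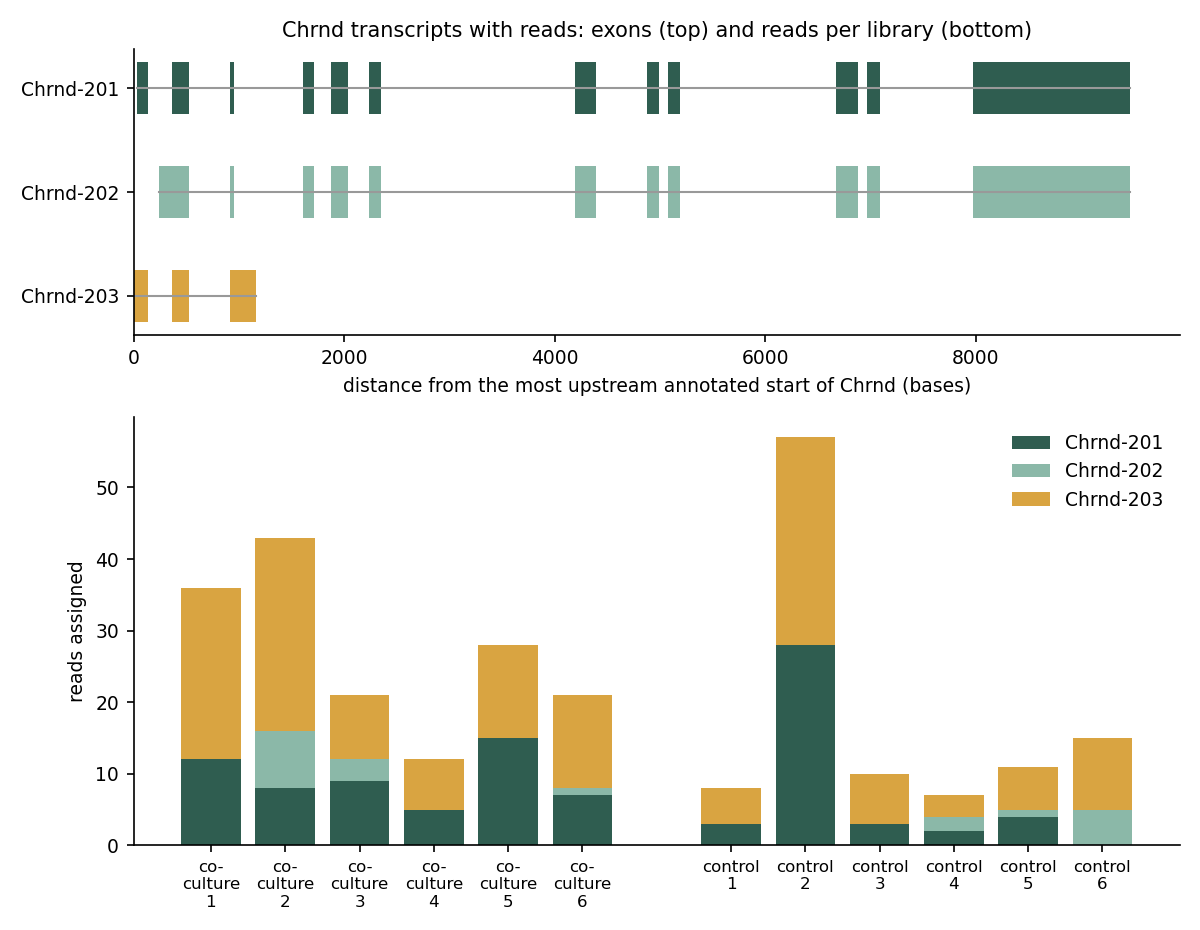
Exons of the 3 Chrnd transcripts by distance from the most upstream annotated start, in bases (top), and the reads assigned to each transcript in every C2C12 library, co-culture left of control (bottom). Chrnd-203 holds 153 of 269 reads, 56.9%, over the 12 libraries.

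Genes that act with the receptor were counted by list, beside the 2.18% of all 2570 tested genes that passed (0.973% higher in co-culture). In the list of agrin, LRP4 and MuSK signalling and anchoring, 8 of 24 genes were tested, 0 rose and 1 fell. That gene was Nes (nestin, an intermediate filament of muscle progenitors and of the junction), with 174 ± 31.6 CPM in co-culture and 305 ± 69.8 CPM in controls (SD, n = 6 each), -0.82 on the log2 scale (SE 0.164, adjusted p = 0.0138 by edgeR), with groups that did not overlap. Lrp4, the agrin receptor, had 691 ± 99.2 CPM in co-culture and 659 ± 114 CPM in controls (log2 fold change 0.12, edgeR adjusted p = 0.781). Dok7, the MuSK activator, and Macf1, a cytoskeletal linker, had log2 fold changes of 0.05 and -0.56 (edgeR adjusted p = 0.953 and 0.156). Rapsn, which anchors receptors and is named after its values were seen, had 91.5 ± 35.4 CPM in co-culture and 89.5 ± 31.9 CPM in controls.

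Of the 26 genes listed for control of subunit transcription, 3 were tested and 1, Myog, passed, beside the same 2.18% of all tested genes. Myogenin, a factor that activates subunit genes through E-boxes, had 2833 to 4141 CPM in co-culture (median 3779), against 2100 to 3123 CPM in controls (median 2611). The groups overlapped at their edges. Myog rose by 0.43 on the log2 scale (SE 0.106, adjusted p = 0.0430 by edgeR), and its call was lost without any 1 of 8 of the 12 libraries (controls 1 to 4 and co-culture replicates 3 to 6, adjusted p up to 0.101) and with the length trend removed (adjusted p = 0.0788). The fold stayed between 0.37 and 0.48 with a library left out, and was 0.38 with the trend removed. Of the 16 genes for receptor assembly and turnover, 8 were tested and 0 passed, beside 2.18% of all tested genes. Canx, an endoplasmic reticulum chaperone, had the smallest p of these (log2 fold change -0.49, edgeR adjusted p = 0.124). The medians of the 3 lists with tested genes were -0.03, 0.02 and -0.08 on the log2 scale, in the order given. Of 11 other nicotinic subunit genes, 0 were tested; in C2C12 only Chrna5 and Chrnb2 had reads, 3 in co-culture and 3 in controls.

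By Pearson correlation of log2 CPM over the 12 C2C12 libraries, the most alike tested genes were Aurkaip1 (0.79), Ubash3a (0.77) and Atp6v1g1 (0.76) for Chrna1. For Chrng they were Psmc5 (0.91), Ptcd3 (0.90) and Pfkm (0.89). For Chrnd they were Eif3k (0.94), Unc45b (0.83) and 1810009A15Rik (0.81), and for Chrnb1 Sap18 (0.86), Tmem147 (0.85) and Rab11b (0.82). The 99th percentile of the correlations with all other tested genes was 0.66 for Chrna1, 0.80 for Chrng, 0.70 for Chrnd and 0.72 for Chrnb1. Between subunits the correlation ran from 0.06 for Chrnd with Chrng, the lowest pair, to 0.65 for Chrnb1 with Chrnd, the highest. The libraries differed in depth (121154 to 658075 reads) and were co-cultured or control, so these are descriptions.

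In NSC34, Chrna1 was the only subunit with reads, and the lines were then compared. Chrna1 had 17 of 55007 reads in co-cultured NSC34 (309 CPM of all reads, exact 95% interval 180 to 495), against 3 of 15858 in control NSC34 (189 CPM, 39.0 to 553). The 6 co-cultured libraries had 4, 9, 1, 0, 2 and 1 reads, and the controls 0, 1, 1, 0, 1 and 0. Those are 0 to 928 CPM (median 253) in co-culture and 0 to 249 CPM (median 108) in controls, and the groups overlap. The means of 332 ± 316 CPM in co-cultured NSC34 and 119 ± 130 CPM in control NSC34 (SD, n = 6 each) did not pass (exact two-sided permutation test, p = 0.141). The difference of 213 CPM was 93.9 CPM without co-culture replicate 1, which had 4 reads of 4309, and passed without co-culture replicate 4 (280 CPM, exact permutation p = 0.0476).

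In C2C12 the pooled level of Chrna1 was 756 CPM of all reads in co-culture and 719 CPM in controls. The difference of C2C12 over NSC34 in mean CPM was 439 CPM in co-culture (exact two-sided permutation p = 0.0152). In controls it was 594 CPM (p = 0.00216 by the exact test, the smallest it can give). Each control NSC34 library had 0 or 1 Chrna1 reads, at a depth of 88 to 4624 reads. This test weighs every library alike, so zeros that low depth alone can give count in full. In a joint edgeR fit, Chrna1 was higher in C2C12 by 1.66 on the log2 scale in co-culture (SE 0.265, adjusted p = 3.06e-06) and by 2.69 in controls (SE 0.497, adjusted p = 5.57e-05), beside 35.3% and 34.5% of 1327 tested genes called higher in C2C12. Scaled by library totals these were 1.23 and 1.85 (adjusted p = 0.000264 and 0.0253), beside 25.2% and 12% of genes (334 and 159 of 1327). On simulated data the TMM fit of this comparison called unchanged genes more often than it should, so both scalings are given.

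Chrng, Chrnd and Chrnb1 had 0 reads in NSC34 in co-culture and in controls. Against the limit of 3 reads of the pooled NSC34 total, Chrng was at least 3.21-fold higher in C2C12, Chrnd at least 1.92-fold and Chrnb1 at least 1.37-fold. At the C2C12 levels, 9.64, 5.76 and 4.11 reads would have fallen on them in NSC34. Without co-culture replicate 2, which held 30314 of the 70865 NSC34 reads, the limit was 74.0 CPM, which left at least 1.84-fold for Chrng, at least 1.10-fold for Chrnd and no bound for Chrnb1. In controls alone the limit lay above the C2C12 level of each, and no bound is given. Over both NSC34 groups, the 11 muscle marker genes had 5 reads beside 20 Chrna1 reads, or 0.25 marker reads per Chrna1 read, against 30.3 in C2C12. The marker reads were 3 on Tnnt1, 1 on Mb and 1 on Myh3, and the other 8 markers, among them Acta1, Ckm, Des and Ttn, had 0. What part RNA of the other line had in the Chrna1 reads was not tested. The other nicotinic subunits with NSC34 reads were Chrna7 and Chrnb4, with 1 co-culture read each, and Chrna3, with 1 control read.

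**Figure D5:**
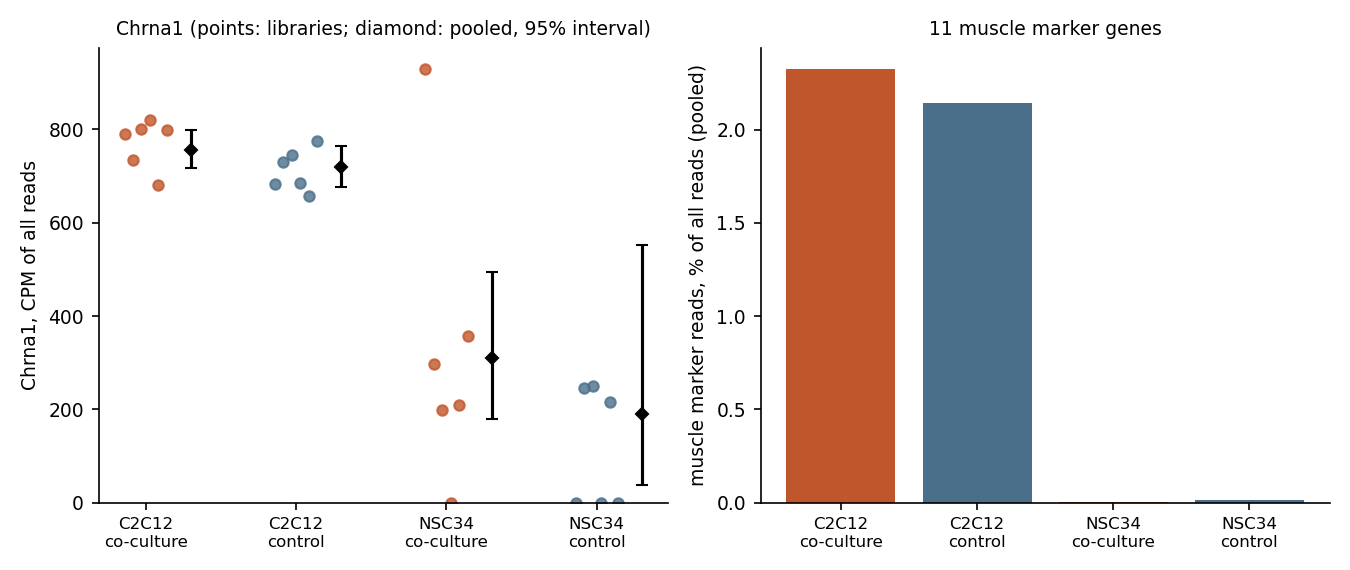
Chrna1 in CPM of all reads (left; points are libraries, diamonds the pooled level with its exact 95% interval) and the share of all reads on 11 muscle marker genes (right, pooled) in the 4 groups. Pooled Chrna1 is 756 and 719 CPM in C2C12 co-culture and control and 309 and 189 CPM in NSC34 co-culture and control, while muscle marker reads are near 0 in NSC34.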

How the data were processed

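Total RNA of 24 libraries was sequenced by Nanopore MinION, per the labels' protocols. The deposited values are raw read counts per Ensembl transcript, 1 table per line, on GRCm38 per the submitters' processing notes; the aligner, counting program and annotation release were not given in the sources that were used. Transcripts were named with GENCODE M21 (37415 of 37677 matched in C2C12, 10374 of 10427 in NSC34; most deposited versions were 1 higher) and summed per symbol. Members, lists and tests were chosen with earlier results of these data known. Genes named by rule are the 5 subunits, the 3 tested genes most alike to each, and per pathway list up to 4 of smallest p and all that passed. Rapsn was named after its values were seen, and single marker genes and other nicotinic genes are also named outside this rule. Groups were compared with edgeR 4.0.16 in R 4.3.3 (filterByExpr, TMM, quasi-likelihood F test, Benjamini-Hochberg threshold 0.05), checked on simulated data. DESeq2 1.42.0 was an alternative. The TMM factors of the joint line fit ran from 0.688 to 7.87, the highest for the library of 88 reads. Single values were tested by exact permutation over libraries in Python 3.11.15 with SciPy 1.17.1, added after the data were seen. Intervals are Clopper-Pearson at 95%, and like the limit of 3 reads cover counting error only.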

Additional observations from a re-analysis of the deposited data

Results flagged for a closer look

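Chrnd in C2C12 co-culture replicate 3 stood apart from the other 5 co-cultured libraries, at 166.489 CPM of tested genes scaled by TMM, with 0.655 of the group's range between it and the next library. It was 1 of 12 groups of values screened in this way, and chance marks about 1 in 20 such groups. This library had 21 Chrnd reads of 143502.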

How the results depend on the processing

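In C2C12 the 4 subunit fold changes kept their sign and stayed short of the threshold under the 8 other settings (7 for Chrnd, which was not tested on coding transcripts alone) and when any 1 of the 12 libraries was dropped. Chrna1 ranged from 0.08 to 0.21, Chrnb1 from 0.16 to 0.33, Chrnd from 0.29 to 0.55 and Chrng from 0.16 to 0.44 on the log2 scale. The count of C2C12 subunits that passed stayed at 0 throughout. In NSC34 no subunit passed the filter on low counts, so that count was fixed at 0, and with no filter Chrna1 had an edgeR adjusted p of 0.530. Of all genes in C2C12, 56 of 2570 were called in the main fit. Over the other settings that count ran from 28 of 2570 with the replicate block to 109 of 15432 with no filter. With a library left out it ran from 14 of 2629 to 76 of 2734. In the comparison of the lines, 2 subunits passed in controls, 1 with library totals and 3 with no filter. Of all genes, 535 of 1327, 303 of 1327 and 1371 of 15830 were called there, in that order. In co-culture 2 subunits passed, beside 468 of 1327 genes called higher in C2C12, and 4 did with no filter. Chrnd also passed without the NSC34 libraries under 1000 reads (edgeR adjusted p = 0.00195, 2453 genes tested). Over the 4 other settings 678 to 2106 genes were called, in fits that tested 1327 to 15830 genes. All of these subunits but Chrna1 had 0 NSC34 reads and were tested only through C2C12, so the subunit counts restate zeros at low depth. With a library left out both counts ran from 1 to 2, since Chrng was then not tested when a C2C12 library was removed. The Chrna1 difference between NSC34 groups ran from 93.9 to 280 CPM, and passed without co-culture replicate 4 (279.599 CPM). The Chrnd-203 share difference ran from -4.42 to 1.32 percentage points and changed sign without co-culture replicate 3 or 5 or control replicate 3 or 6, with no call. Same-numbered C2C12 libraries had deviations correlated by -0.0516 to 0.1003, and 1 of 6 matched best with its own number, so the numbers were not taken to pair the C2C12 groups (pairing within NSC34 or between the lines was not checked); with the replicate block the Chrna1 and Chrng fold changes were 0.11 and 0.31, the line fit 2.68 in controls and 1.64 in co-culture for Chrna1, and no subunit call changed. Transcript usage could not be tested for any subunit, because fewer than 2 of its transcripts were tested. NSC34 depth limits any gene under 42.3 CPM.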
